A study of Saccharomyces cerevisiae with 24 samples.

Results

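Ribosome footprints in the 3' untranslated regions (3' UTRs) of budding yeast (Saccharomyces cerevisiae) transcripts were followed in 8 ribosome profiling libraries. The regions were chosen by position. A 3' window begins 13 codons after the stop codon, where reads from ribosomes at the stop codon no longer reach, and ends where the deposited annotation of the transcript ends. Transcripts with a mean of at least 20 RPM (reads scaled to 1e+06 per library) over the coding sequence in the 8 libraries were kept, which gave 3707 of the 6663 transcripts in the files. PET494, just inside that limit, had 20.0342 coding RPM, and CHS7, just outside it, had 19.9999. Of the 3707 transcripts, 1101 ended before codon 13 and had no window, and 2606 had a window of 1 to 254 codons (median 38). Footprints were found in the window in at least 1 library for 2377 transcripts, in all 8 libraries for 480, and in none for 229. A mean of at least 0.5 RPM was reached by 84 windows and a mean of at least 0.1 RPM by 427.

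An elongating ribosome normally stops at the stop codon, where the release factors eRF1 and eRF3 free the protein and the ATPase Rli1 (ABCE1) splits the ribosome into its subunits. Footprints beyond that point can come from ribosomes that read through the stop codon, that were not recycled, that started again downstream, or that translate another reading frame in the same stretch of the genome. Collided ribosomes are sensed by Hel2, a ubiquitin ligase that starts ribosome quality control. The rescue factors Dom34 and Hbs1 act on ribosomes stranded in 3' UTRs.

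All 8 libraries came from strain HEL2-FTP, whose background is given as MATa ade2 his3 leu2 trp1 ura3 can1 with HEL2-FTP::natNT2, so the tagged Hel2 was present in the inputs too and no untagged strain enters these comparisons. Cells grew in YPD at 30 °C to an OD600 of 0.5 to 0.6. Lysates were separated into a cytosolic fraction and a membrane fraction that was solubilised with 1% Triton X-100, and footprints were made with RNase I. The 4 groups of 2 libraries were Hel2 immunoprecipitates (IP) of the cytosol, Hel2 IP of the membrane fraction, membrane input and cytosolic input. An IP library holds footprints recovered with Hel2, and an input library holds all footprints of the fraction. The labels do not say that replicates were separate cultures, so p-values measure only the spread between these libraries.

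The estimated depth was 22.1 to 38.9 times 1e+06 reads per library, and 1 read was worth 0.0257 to 0.0451 RPM. A window with 3 reads thus had 0.0772 to 0.135 RPM, and values below that range rest on fewer than 3 reads. Markers of membrane-bound translation separated the fractions, and cytosolic markers did not. Coding RPM of SEC61, STT3, PMT1, GAS1 and PMA1, which encode proteins made at the endoplasmic reticulum, was 10.7 to 20.1 times as high in membrane as in cytosolic inputs, whereas the cytosolic enzymes and factors TDH3, PGK1, ENO2, TEF1 and CDC19 lay at 0.932 to 0.965 times. The membrane inputs thus held these cytosolic transcripts at nearly the cytosolic level. Replicates correlated with r of 0.828 to 0.887 over the log2 3' RPM of 2550 windows, which share library and depth.

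Footprints fell steeply at the stop codon and did not reach 0 after it. Over the 2550 windows without another annotated gene on the same strand, the mean level 20 codons before the stop codon was 646 ± 25.1 thousandths of an RPM per codon position in cytosolic IP and 1173 ± 17.6 in cytosolic input (SD, n = 2 each). At codon 13 it was 2.59 ± 0.0805 thousandths of an RPM in cytosolic IP and 4.89 ± 0.344 in cytosolic input. At codon 60, which 1007 windows reach, it was 0.641 ± 0.0467 in cytosolic IP and 0.487 ± 0.0806 in cytosolic input, so the order of IP and input was turned round. The membrane fraction gave 2.50 ± 0.215 in IP and 4.46 ± 0.223 in input at codon 13, and 0.681 ± 0.0393 in IP and 0.506 ± 0.0744 in input at codon 60.

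**Figure D1:**
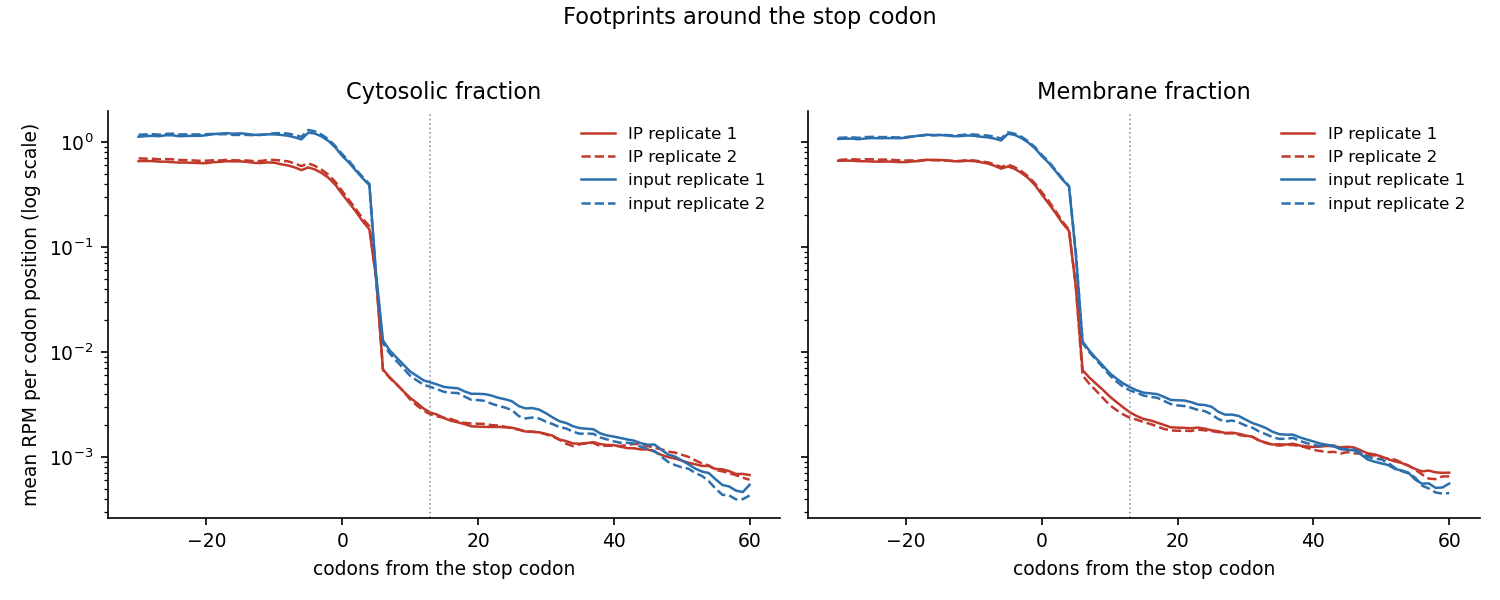
Mean RPM per codon position (log scale) against the distance from the stop codon in codons, for windows without a same-strand gene, with 1 line per library (IP red, input blue, solid for replicate 1 and dashed for replicate 2). The dotted line marks codon 13, where the window begins. The IP lines lie below the input lines at codon 13 and at or above them at codon 60.

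Most of the 3' RPM lay in a few windows that other genes of the files also cover. The transcript with the highest level held 20.1% to 26.4% of all 3' RPM of a library, and the 8 transcripts with at least 10 RPM held 58.4% to 65.6%. By the RefSeq table of assembly R64, 45 windows run into another gene on the same strand and held 34.4% to 37.1% of the 3' RPM. A further 11 windows belong to transcripts whose coordinates that table does not give, and they held 26.8% to 34.6%. The 2550 windows without a same-strand gene held 30.6% to 36.9%.

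For the transcripts at the top, the files themselves gave the source of the values, because the same codons carry the same RPM under a second transcript name. YBR121C-A, a short open reading frame without coordinates in the table, had 97.7 and 92.8 RPM in its window in cytosolic IP and 84.6 and 89.2 RPM in membrane IP, against 174 and 162 RPM in cytosolic input and 160 and 163 RPM in membrane input. Its 197 window codons match codons 359 to 555 of GRS1, the glycyl-tRNA synthetase, with a mean of 127.8 RPM under the first name and 127.7 RPM under GRS1. The window of YLR179C (chromosome XII, 514108 to 514713, minus strand) had 66.9 RPM and covers TFS1, with 67.0 RPM over the same codons. The window of YPR169W-A had 37.0 RPM and holds the values of YPR170W-B unchanged. Of the window RPM, 100% lay in the coding sequence of GRS1, 99.3% in that of TFS1 and 92.9% in that of YPR170W-B.

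The next windows were of the same kind. HAP1, the haem-responsive transcription factor (chromosome XII, 646415 to 650923, plus strand), had 36.2 RPM, of which 94.1% lay from 5 codons before the start of YLR256W-A onward. YPR053C had 20.7 RPM and YBR090C had 17.0 RPM, and their windows cover NHP6A and NHP6B, which encode high-mobility-group proteins. PEX8, a peroxisome biogenesis factor, had 16.3 RPM in a window over MRPL25, a mitochondrial ribosomal protein gene. VPS17, a retromer subunit, had 14.8 RPM in a window that ends just after the start of EFT1, a gene for elongation factor 2 whose reads cannot be assigned with certainty between it and its near-identical copy EFT2. LIA1, deoxyhypusine hydroxylase, had 5.55 RPM in a window that reaches HAM1. Among the 15 windows with a same-strand gene and at least 0.5 RPM, 13 had at least 80% of their RPM from 5 codons before the start of that gene onward. The exceptions were ENO2 and RPL13B, in which all RPM lay before it.

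The pooled 3' over coding ratio was lower in IP than in input in both fractions when RPM was summed. This difference was not seen in density per codon, which covers only the transcripts with a window. The ratio is the sum of 3' RPM over the 3707 transcripts divided by the sum of their coding RPM. It was 0.0464% and 0.0469% in cytosolic IP, against 0.0726% and 0.0686% in cytosolic input. In the membrane fraction it was 0.0435% and 0.0430% in IP, against 0.0647% and 0.0642% in input. Both IP libraries lay below both inputs in each fraction, with log2 differences of -0.60 in the cytosol and -0.58 at the membrane. An exact two-sided permutation test of 2 against 2 libraries cannot give a p below 0.333, which both comparisons gave. The sums do not allow for the lengths of windows and coding sequences. They also include the coding RPM of the 1101 transcripts without a window, which have no weight in a density per codon. The parts of length and of these transcripts in the change of scale were not tested. With 3' density per codon set against the coding density of the same transcripts, the ratio was 0.456% ± 0.0105 in cytosolic IP and 0.438% ± 0.0257 in cytosolic input, and 0.414% ± 0.0108 in membrane IP and 0.415% ± 0.00875 in membrane input (SD, n = 2 each). On that scale the libraries overlapped in each fraction.

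Set against the coding RPM of their own transcripts, each kind of window differed less. Over the 45 windows with a same-strand gene the ratio was 0.671% ± 0.0354 in cytosolic IP and 0.658% ± 0.0467 in cytosolic input, and 0.625% ± 0.0405 in membrane IP and 0.609% ± 0.0126 in membrane input (SD, n = 2 each). Over the 11 transcripts without coordinates it was 12.9% ± 1.18 in cytosolic IP and 13.3% ± 1.00 in cytosolic input, and 10.2% ± 1.65 in membrane IP and 12.6% ± 1.42 in membrane input. Over the 2550 windows without a same-strand gene it was 0.0252% and 0.0250% in cytosolic IP, against 0.0304% and 0.0264% in cytosolic input. At the membrane it was 0.0244% and 0.0225% in IP, against 0.0271% and 0.0247% in input. The log2 differences were -0.18 in the cytosol and -0.15 at the membrane, with the IP libraries still below the inputs (exact permutation p = 0.333 each). As density per codon over coding density the order in these windows was turned round. That ratio was 0.173% and 0.168% in cytosolic IP against 0.161% and 0.137% in cytosolic input, and 0.167% and 0.152% in membrane IP against 0.149% and 0.133% in membrane input. Windows clear also of annotated leaders and RNA genes (2211) gave -0.24 and -0.19 for the summed ratio. Unlike the summed ratio, the median over the 2377 transcripts with any footprint was higher in cytosolic IP, at 0.0165% and 0.0112% in cytosolic IP against 0.0105% and 0.00246% in cytosolic input. At the membrane the medians were 0.00937% and 0.00801% in IP against 0.00948% and 0.00389% in input, and the libraries overlapped. Between 34.0% and 48.1% of these transcripts had no footprint in a given library, with the lowest share in the deepest library and the 2 highest shares in the 2 shallowest, and the part of depth in the medians was not tested.

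**Figure D2:**
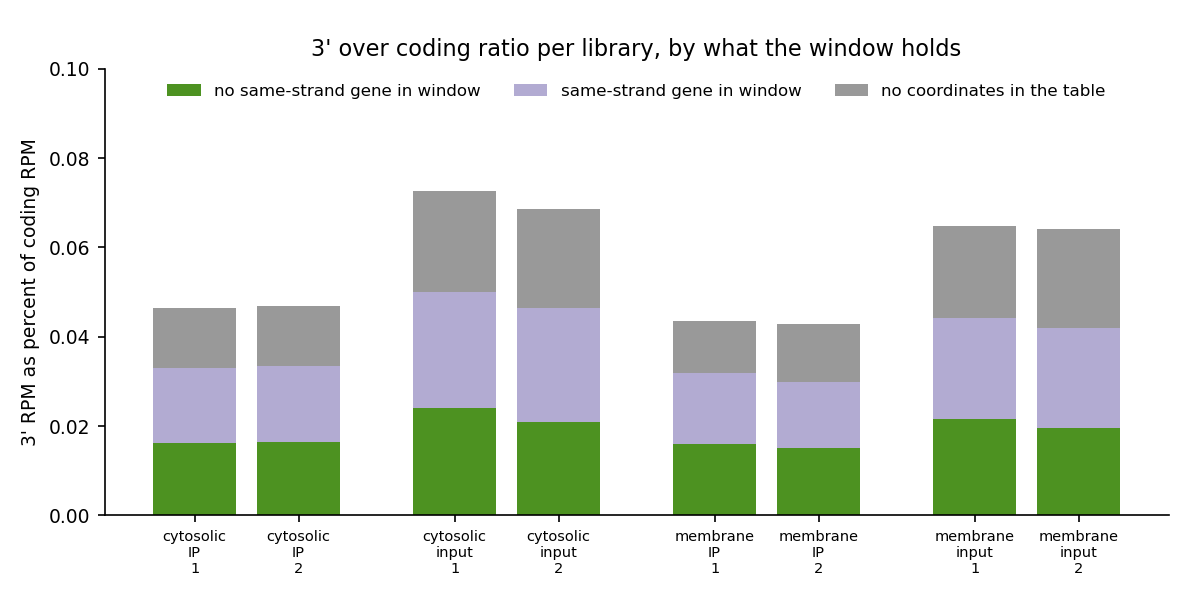
Bars, 1 per library, give the 3' RPM as a percentage of the coding RPM of all 3707 transcripts, split into windows without a same-strand gene, windows with one and transcripts without coordinates. IP bars reach 0.0430% to 0.0469% and input bars 0.0642% to 0.0726%.

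Among windows without a same-strand gene, the highest levels belonged to abundant transcripts. Across these 2550 windows, 3' RPM per codon and coding RPM per codon had a Spearman rho of 0.667, a description over transcripts that share libraries and depth. CCW12, a cell wall mannoprotein (chromosome XII, 369697 to 370098, minus strand), had 2.92 and 2.49 RPM in cytosolic IP and 1.55 and 1.85 RPM in membrane IP, against 9.57 and 6.69 RPM in cytosolic input and 7.19 and 6.98 RPM in membrane input. FBA1, the glycolytic aldolase, had 0.816 and 0.839 RPM in cytosolic IP and 0.929 and 0.832 RPM in membrane IP, against 7.87 and 6.63 RPM in cytosolic input and 5.93 and 5.86 RPM in membrane input. For both genes all IP libraries lay below all inputs. YDR524C-B, with 1.61 to 2.37 RPM in the IP libraries and 2.77 to 4.63 RPM in the inputs, lay between TDH3 and RPL14B, and its window codons carry the same RPM under YDR524C-A, past the end of that reading frame. TDH3, glyceraldehyde-3-phosphate dehydrogenase, had 1.59 to 2.58 RPM in the IP libraries and 2.36 to 5.18 RPM in the inputs, and its reads may be shared with TDH2. RPL14B, a ribosomal protein of the large subunit with a paralogue, had 0.881 to 1.62 RPM in the IP libraries and 3.12 to 3.97 RPM in the inputs. These 5 were picked after their values were seen, as the highest windows without a same-strand gene in the table.

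As a share of coding RPM the windows were low throughout. Over the 65 windows without a same-strand gene and with at least 0.5 RPM, the mean 3' over coding ratio ran from 0.00566% to 8.58% with a median of 0.0942%, and 10 reached 1%. The highest was SAL1, a mitochondrial ATP-Mg/phosphate carrier (chromosome XIV, 471377 to 472861, plus strand). Stop codons are those of the deposited annotation, and whether reading frames end at the same place in strain HEL2-FTP was not checked. SAL1 had ratios of 4.09% and 5.86% in cytosolic IP and 4.69% and 5.87% in membrane IP, against 13.8% and 11.8% in cytosolic input and 8.25% and 14.3% in membrane input. All its IP libraries lay below all its inputs, while its 3' RPM overlapped, at 1.43 to 2.17 in the IP libraries and 0.926 to 1.86 in the inputs.

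The ratio of each transcript in IP and input was then compared with limma on log2((3' RPM + 0.1)/(coding RPM + 0.1)), with Benjamini-Hochberg adjustment over all 108 transcripts of the files with at least 1 coding RPM and 0.5 3' RPM. These include the 84 described here. In the cytosol 36 of the 84 changed, 16 higher and 20 lower in IP. Over all 108 transcripts tested, 50% were called, 20.4% higher and 29.6% lower, beside 42.9% of the 84. The 84 are part of these 108, so the transcripts outside the 84 were called more often than 50%. The median log2 change of the 84 was -0.19, beside -0.24 over all tested. With the log ratios of each library centred on the median of that library, the split was 12 higher and 24 lower. Of the 65 windows without a same-strand gene, 12 changed to a higher and 15 to a lower ratio.

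A window was tested if its mean over the 8 libraries reached 0.5 RPM, and some reached it through IP or through input alone. Of the 16 rises in the cytosol 8 had a mean below 0.5 RPM over the 4 inputs, and of the 20 falls 8 had a mean below 0.5 RPM over the 4 IP libraries. The counts were 8 of 15 and 8 of 20 at the membrane. For such windows a difference was built into being tested. MEO1, YBR126W-B, RBH2, IVY1, CYC1 and HTB2 are among these rises, and HIR3, RPS4A, RPS1B, RPS29B and RPL23B among these falls in both fractions. Their changes are given as a description.

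The largest rise in cytosolic IP, in 1 window listed under a pair of names, was at a place nearly empty in input. MEO1 (chromosome II, 490850 to 491056, plus strand) had 1.42 and 1.21 RPM in its window in cytosolic IP, against 0.0688 and 0.116 RPM in cytosolic input. In the membrane fraction it had 0.984 and 1.11 RPM in IP, against 0.112 and 0.0903 RPM in input. The input values are those of about 3 reads or fewer, and every IP library lay above every input. Its log2 change was 4.35 (SE 0.304) in the cytosol and 3.56 at the membrane. YBR126W-B, with changes of 4.45 and 3.61, shares its window codons with MEO1 and is the same signal under a second name.

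RBH2 (chromosome X, 483959 to 486196, minus strand) showed the same order. Its window held 3.16 and 2.03 RPM in cytosolic IP against 0.127 and 0.117 RPM in cytosolic input, and 2.48 and 3.95 RPM in membrane IP against 0.0268 and 0.118 RPM in membrane input. The log2 change of the ratio was 2.26 (SE 0.341) in the cytosol and 3.28 at the membrane. IVY1, a phospholipid-binding protein of the vacuole (chromosome IV, 924785 to 926146, plus strand), had 1.04 and 1.30 RPM in cytosolic IP against 0.0344 and 0.164 RPM in cytosolic input. Its membrane values were 1.27 and 0.952 RPM in IP against 0.112 and 0 RPM in input. The changes were 3.07 in the cytosol and 3.66 at the membrane. The input values are those of a few reads at most, so the size of these changes also depends on the pseudocount. The IVY1 window also covers the transcript YDR230W of the files, in whose coding sequence 6.61% of the window's RPM lay, and YDR231C on the opposite strand.

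CYC1, cytochrome c isoform 1 (chromosome X, 526335 to 526664, plus strand), had 0.629 and 0.967 RPM in cytosolic IP against 0.324 and 0.341 RPM in cytosolic input, and 1.05 and 0.770 RPM in membrane IP against 0.587 and 0.390 RPM in membrane input. The log2 change of its ratio was 2.74 in the cytosol and 2.26 at the membrane. The CYC1 ratio changed by more than its 3' RPM alone, so its coding RPM was lower in IP in both fractions. HTB2, a histone H2B gene (chromosome II, 236492 to 236887, plus strand), had 0.725 and 0.574 RPM in cytosolic IP against 0.118 and 0.0388 RPM in cytosolic input, and 0.887 and 1.10 RPM in membrane IP against 0.241 and 0.356 RPM in membrane input. Its coding RPM overlapped between IP and input, at 246 to 275 in the IP libraries and 222 to 271 in the inputs. The HTB2 ratio changed by 2.06 in the cytosol and by 1.31 at the membrane. The HTB2 window also covers YBL001C on the opposite strand.

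A change in the ratio can come from the window or from the coding sequence. RPS20, a ribosomal protein of the small subunit, had 0.881 and 0.968 3' RPM in cytosolic IP against 0.620 and 0.784 in cytosolic input, while its coding RPM was 347 and 348 in cytosolic IP against 1181 and 1230 in cytosolic input. Its ratio rose by 2.15 (limma adjusted p = 5.44e-05). Among the 16 transcripts with a higher ratio in cytosolic IP, the mean 3' RPM was higher in IP for 11 and the mean coding RPM was lower in IP for 12. Among the 20 with a lower ratio, the mean 3' RPM was lower in IP for 16 and the mean coding RPM was higher in IP for 8. At the membrane the mean 3' RPM was higher in IP for 12 of the 15 with a higher ratio and lower in IP for 17 of the 20 with a lower ratio.

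**Figure D3:**
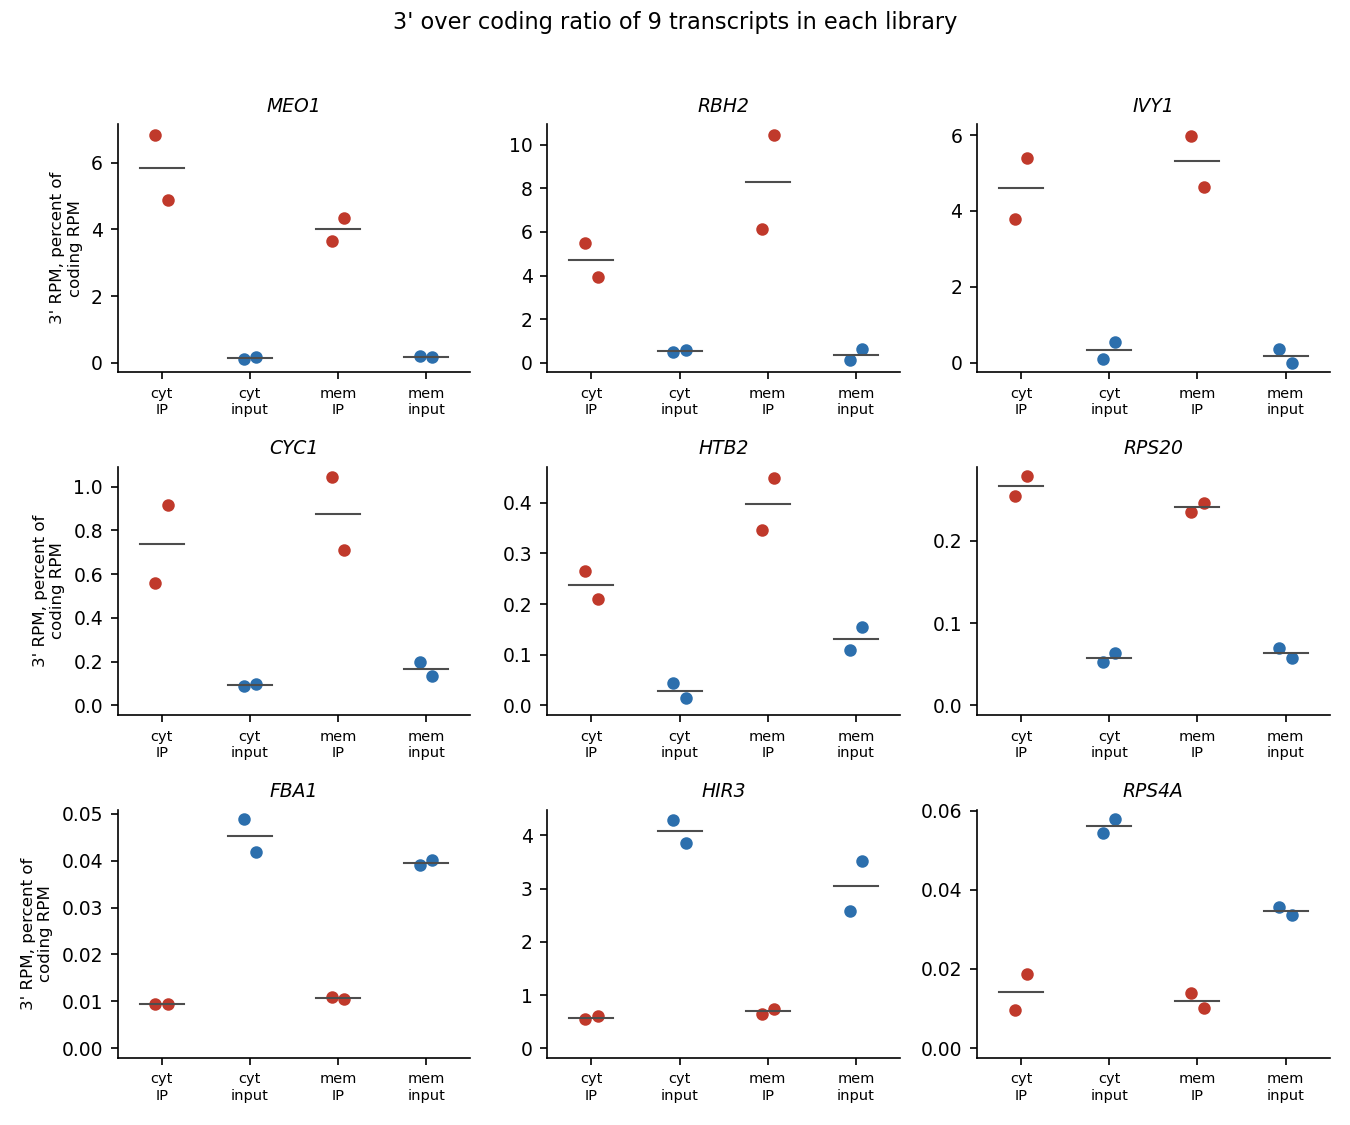
The 3' RPM as a percentage of coding RPM for 9 transcripts in cytosolic (cyt) IP, cytosolic input, membrane (mem) IP and membrane input, with 1 dot per library and a line at the group mean. MEO1, RBH2, IVY1, CYC1, HTB2 and RPS20 lie higher in every IP library than in every input of the same fraction, and FBA1, HIR3 and RPS4A lie lower.

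The falls were led by PEX8, whose window holds MRPL25. PEX8 had 4.63 and 5.00 3' RPM in cytosolic IP against 32.1 and 29.0 in cytosolic input, and its coding RPM was 85.6 and 80.3 in cytosolic IP against 21.7 and 20.1 in cytosolic input. Its ratio changed by -4.63 (SE 0.14, limma adjusted p = 1.94e-11), a comparison of MRPL25 reads with PEX8 reads. HOS2, a histone deacetylase whose window holds YGL194C-A, changed by -2.09 (limma adjusted p = 1.03e-06). Without a same-strand gene in the window, HIR3, a subunit of the HIR histone chaperone (chromosome X, 690750 to 695696, minus strand), changed by -2.64 (SE 0.283). The HIR3 window does hold an annotated leader or RNA gene. HIR3 had 0.356 and 0.393 3' RPM in cytosolic IP against 0.892 and 0.811 in cytosolic input, beside 65.9 and 64.7 coding RPM in cytosolic IP and 20.8 and 21.0 in cytosolic input.

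FBA1 (chromosome XI, 326408 to 327487, minus strand) had ratios of 0.00938% and 0.00934% in cytosolic IP against 0.0489% and 0.0418% in cytosolic input, a log2 change of -2.13 (SE 0.17, limma adjusted p = 3.80e-07). At the membrane its ratios were 0.0109% and 0.0104% in IP against 0.0390% and 0.0402% in input, a change of -1.76 (adjusted p = 2.15e-06). RPS4A, a small-subunit ribosomal protein with the near-identical copy RPS4B (chromosome X, 702027 to 703068, minus strand), had 0.250 and 0.437 3' RPM in cytosolic IP against 1.81 and 1.72 in cytosolic input. Its ratio changed by -1.74 in the cytosol and by -1.25 at the membrane.

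At the membrane 35 of the 84 transcripts changed, 15 higher and 20 lower in IP. The background was 44.4% of 108 called, 19.4% higher and 25% lower, and the median log2 change was -0.17 both among the 84 and over all tested. With each library centred on its own median, the split was 13 higher and 25 lower. The cytosolic and membrane changes come from different libraries, but limma took the spread of each transcript from all 8 libraries in 1 fit. Calls in both fractions thus share an estimate of the spread and are not independent. The 5 cytosolic markers were also at nearly the same level in both fractions, so the fractions are not fully separate populations of transcripts. In both fractions 13 transcripts were called higher and 16 lower, and none was called in opposite directions. That is 80.6% of the cytosolic calls and 82.9% of the membrane calls, and 68 of the 84 had the same sign in both. This overlap was counted for the 84 only and not over all 108 tested, so it does not set the 84 apart. The filter took the mean over all 8 libraries. For windows that reached it through IP alone or input alone, a shared direction was thus partly built in. Such windows among the shared rises are CYC1, HTB2, IVY1, NCW1, RBH2, and MEO1 and YBR126W-B, which are 1 signal. Among the shared falls they are HIR3, RPL23B, RPS1B, RPS29B and RPS4A. CLG1, a cyclin-like partner of the kinase Pho85, was among the largest membrane falls at -1.79 (limma adjusted p = 0.000404). CLG1 had more 3' RPM in membrane IP, 0.589 and 0.578, than in membrane input, 0.204 and 0.135, but its coding RPM was 746 and 697 in membrane IP against 83.7 and 79.6 in membrane input.

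The difference between the fractions in the IP over input change was tested directly. For this interaction limma called none of the 84 transcripts (5 had an unadjusted p below 0.05, among them RPL14B and SFK1) and 1.85% of the 108. RPL14B changed by -0.98 at the membrane (limma adjusted p = 0.00262), while in the cytosol its change was -0.08 (adjusted p = 0.777), and the difference between these changes had an adjusted p of 0.167.

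A lower filter of 0.1 3' RPM, chosen after seeing the data, let in windows with fewer reads and shifted the balance toward rises. In the cytosol 116 of 427 transcripts were then called by limma, 65 higher and 51 lower in IP, beside 30.3% of 501 tested, 16% higher and 14.4% lower. At the membrane 108 were called, 58 higher and 50 lower, beside 27.1%, 14.6% higher and 12.6% lower. The interaction was called for 2, 1 in each direction, beside 0.998%, 0.399% higher and 0.599% lower. Between membrane input and cytosolic input 27 were called, 3 higher and 24 lower, beside 9.38%, 1.4% higher and 7.98% lower.

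**Figure D4:**
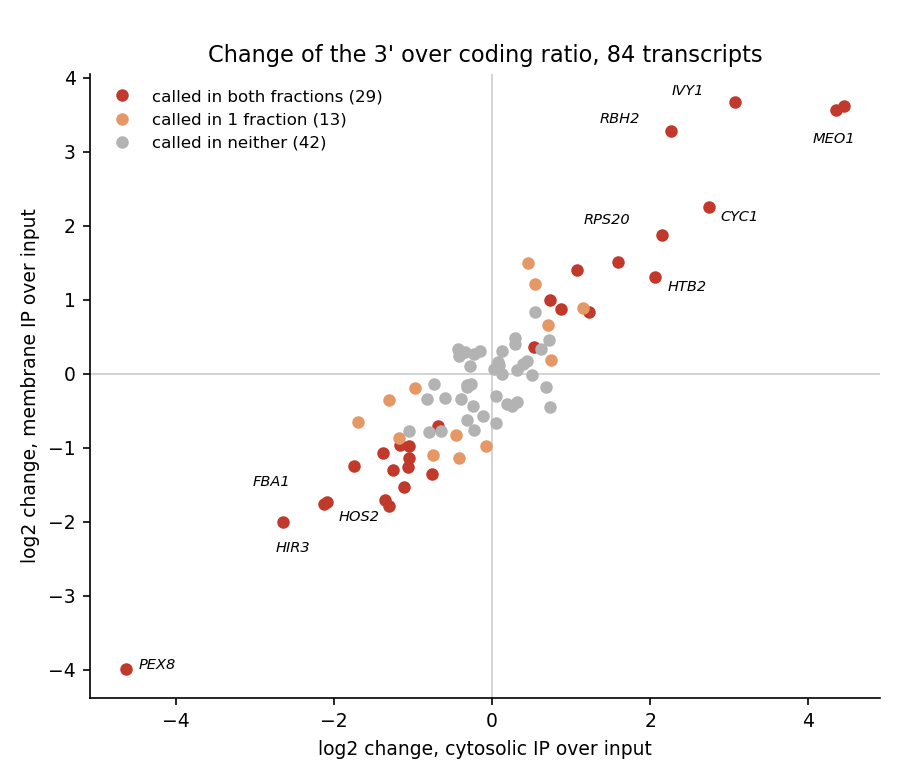
Log2 change of the 3' over coding ratio in membrane IP over input (vertical axis) against cytosolic IP over input (horizontal axis) for the 84 transcripts with at least 0.5 3' RPM, coloured by the fractions in which limma called them. Of these, 29 were called in both fractions, 13 in 1 and 42 in neither, and none was called in opposite directions.

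Ribosomal protein genes were the largest of the gene lists among the tested windows. Of 138 that met the coding limit, 128 had a window and 26 were tested. In cytosolic IP 3 changed to a higher ratio and 6 to a lower one (median -0.36), and in membrane IP 2 were higher and 8 lower (median -0.43). That is 9 of 26 called in the cytosol, beside 50% of all 108 tested, and 10 of 26 at the membrane, beside 44.4%, so no more than over all tested. The medians over all 108 were -0.24 in the cytosol and -0.17 at the membrane. RPS20 and RPS12 were higher in both, RPS12 by 1.22 (limma adjusted p = 0.00355) in the cytosol and 0.83 (adjusted p = 0.032) at the membrane. RPS4A, RPS1B, RPS29B and RPL23B were lower in both. RPS1B changed by -1.35 in the cytosol and -1.71 at the membrane. Pooled over 126 windows without a same-strand gene, the ratio was 0.0270% ± 0.000913 in cytosolic IP and 0.0407% ± 0.0057 in cytosolic input (SD, n = 2 each, exact permutation p = 0.333). Most of these genes have a near-identical paralogue, so the counting could split coding reads between copies.

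Glycolytic genes were called in both directions, as were the transcripts tested as a whole. All 20 on the list met the coding limit, and 9 were tested. In the cytosol 2 were called higher and 2 lower, beside 20.4% and 29.6% of all 108 tested. At the membrane 1 was called higher and 2 lower, beside 19.4% and 25%. With 9 tested, these counts do not set the list apart. In the cytosol ADH1, alcohol dehydrogenase, at 0.75 (limma adjusted p = 0.0369) and PGK1, phosphoglycerate kinase, at 1.07 (adjusted p = 0.0304) were higher in IP, and FBA1 and ENO2 were lower. At the membrane PGK1 was higher at 1.40 (limma adjusted p = 0.00719), and FBA1 and ENO2 were lower. ENO2, enolase, has a window that reaches the gene CTR2 on the same strand, but none of its RPM lay in CTR2, and its change was -0.68 (limma adjusted p = 0.008) in the cytosol and -0.71 (adjusted p = 0.00719) at the membrane. ENO2 shares sequence with ENO1.

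The next lists had too few tested windows to be set apart from all 108 tested, of which 50% were called in the cytosol and 44.4% at the membrane. The cell wall list had 29 members and 3 tested windows. SED1, a stress-induced wall protein, rose by 0.74 (limma adjusted p = 0.0297) in the cytosol and 0.99 (adjusted p = 0.0058) at the membrane. CCW12 changed by -0.76 (limma adjusted p = 0.0153) in the cytosol and -1.35 (adjusted p = 0.000334) at the membrane. CWP2, another wall mannoprotein, changed by -1.07 (limma adjusted p = 0.0106) in the cytosol and -1.27 (adjusted p = 0.00423) at the membrane. Among histones HTB2 was called higher in both fractions, and HHF1, a histone H4 gene, did not pass the test, at -0.43 (limma adjusted p = 0.301) in the cytosol and 0.34 (adjusted p = 0.435) at the membrane. Of the 3 tested elongation factor genes, HYP2, which encodes eIF5A, was higher in cytosolic IP at 1.15 (limma adjusted p = 0.0369, with the 4 inputs below 0.5 RPM on average), and its window covers MTC7. EFB1 and TEF4 did not pass, and neither did HSC82, the only tested chaperone gene.

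Windows of the termination and quality control genes were all below the level tested. The median over the 2550 windows without a same-strand gene was 0.0177 RPM, so low values are not particular to these lists. All 9 termination, recycling and rescue genes met the coding limit, 5 had a window, and the highest, SUP45 (eRF1), had 0.0835 RPM. Of 13 collision and quality control genes the highest was ASC1, the ribosomal scaffold protein RACK1, with 0.302 RPM. Only 2 genes on the list of published readthrough or frameshifting met the coding limit, and PDE2, the only one with a window, had a mean of 0.00804 RPM. Among 27 genes of the translocon, folding and glycosylation in the endoplasmic reticulum the highest was SBH1, a subunit of the Sec61 complex, with 0.411 RPM against 30.7 coding RPM. None of these windows reached 0.5 RPM, so none was tested. No mitochondrially encoded gene was among the 3707.

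Between the inputs of the fractions limma called few windows, while pooled ratios of membrane transcripts differed more. Limma called 3 of the 84 between membrane input and cytosolic input, 1 higher and 2 lower in membrane input, beside 9.26% of the 108, 3.7% higher and 5.56% lower. SFK1, a plasma membrane protein (chromosome XI, 341312 to 342373, plus strand), had a ratio of 1.51% ± 0.413 in membrane input and 7.76% ± 2.71 in cytosolic input (SD, n = 2 each), a change of -2.43 (SE 0.332, limma adjusted p = 0.000139). Its 3' RPM overlapped, at 1.08 and 0.746 in membrane input against 0.757 and 0.388 in cytosolic input, whereas its coding RPM was 60.6 ± 0.865 in membrane input and 7.24 ± 0.831 in cytosolic input. PMA1, the plasma membrane proton pump, changed by -1.15 (limma adjusted p = 0.0428), with 8556 and 8176 coding RPM in membrane input against 653 and 782 in cytosolic input. PMA1 lost its call without either membrane input or any of the 4 cytosolic libraries, with adjusted p from 0.0507 to 0.301. HTB2 was higher in membrane input by 1.42 (limma adjusted p = 0.00647), and its adjusted p was 0.0697 without cytosolic input replicate 2 and 0.0984 without membrane input replicate 2. Of 459 transcripts enriched in membrane inputs of the other strains of the series, 344 had a window and 3 were tested. SFK1 was the only one of the 3 called in cytosolic IP, at -1.70 (limma adjusted p = 0.000931), and none was called in membrane IP. Over all 108 tested, 50% were called in cytosolic IP and 44.4% in membrane IP. Pooled over the 338 of these windows without a same-strand gene, the ratio was 0.0240% ± 0.000688 in membrane input and 0.0566% ± 0.0208 in cytosolic input (SD, n = 2 each, exact permutation p = 0.333), 0.425 times as high in membrane input. Their summed coding RPM was 70006 and 68651 in membrane input against 8185 and 8967 in cytosolic input, and their summed 3' RPM was 16.5 and 16.8 in membrane input against 5.83 and 3.75 in cytosolic input. Over 19 windows of the endoplasmic reticulum list the ratio was 0.0413% ± 0.00362 in membrane input and 0.237% ± 0.0786 in cytosolic input (SD, n = 2 each, exact permutation p = 0.333). No window of this list exceeded a mean of 0.411 3' RPM over the 8 libraries, so these ratios rest on low 3' levels. SEC61 and PMT1, both on the list, had 378 and 300 coding RPM in membrane input against 28.8 and 18.7 in cytosolic input.

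The IP and input libraries also differed in how far from the stop codon the footprints lay. For windows without a same-strand gene, density per codon was set against the coding density of the same transcripts. At 13 to 22 codons it was 0.321% ± 0.00404 in cytosolic IP and 0.369% ± 0.0358 in cytosolic input (SD, n = 2 each), and at 23 to 32 codons 0.235% ± 0.00638 in cytosolic IP and 0.223% ± 0.0321 in cytosolic input. At 33 to 62 codons it was 0.143% ± 0.00148 in cytosolic IP and 0.0961% ± 0.00939 in cytosolic input, 1.49 times as high in IP. From codon 63 on, in 935 windows, it was 0.0810% and 0.0761% in cytosolic IP against 0.0304% and 0.0252% in cytosolic input, 2.83 times as high in IP. The IP libraries thus lay below the inputs near the stop codon and above them far from it.

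The membrane fraction showed the same order. At 13 to 22 codons the density was 0.30% ± 0.0199 in membrane IP and 0.351% ± 0.0246 in membrane input (SD, n = 2 each). At 33 to 62 codons it was 0.138% ± 0.00731 in membrane IP and 0.0948% ± 0.00474 in membrane input, 1.46 times as high. From codon 63 on it was 0.0765% and 0.0636% in membrane IP against 0.0287% and 0.0255% in membrane input, 2.58 times as high in IP. The exact permutation p from codon 63 on was 0.333 in each fraction, the smallest that 2 against 2 libraries allow. Without scaling to coding density, the level from codon 63 on was 0.591 and 0.579 RPM per 1000 codons in cytosolic IP against 0.332 and 0.284 in cytosolic input, and 0.589 and 0.504 in membrane IP against 0.312 and 0.285 in membrane input.

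**Figure D5:**
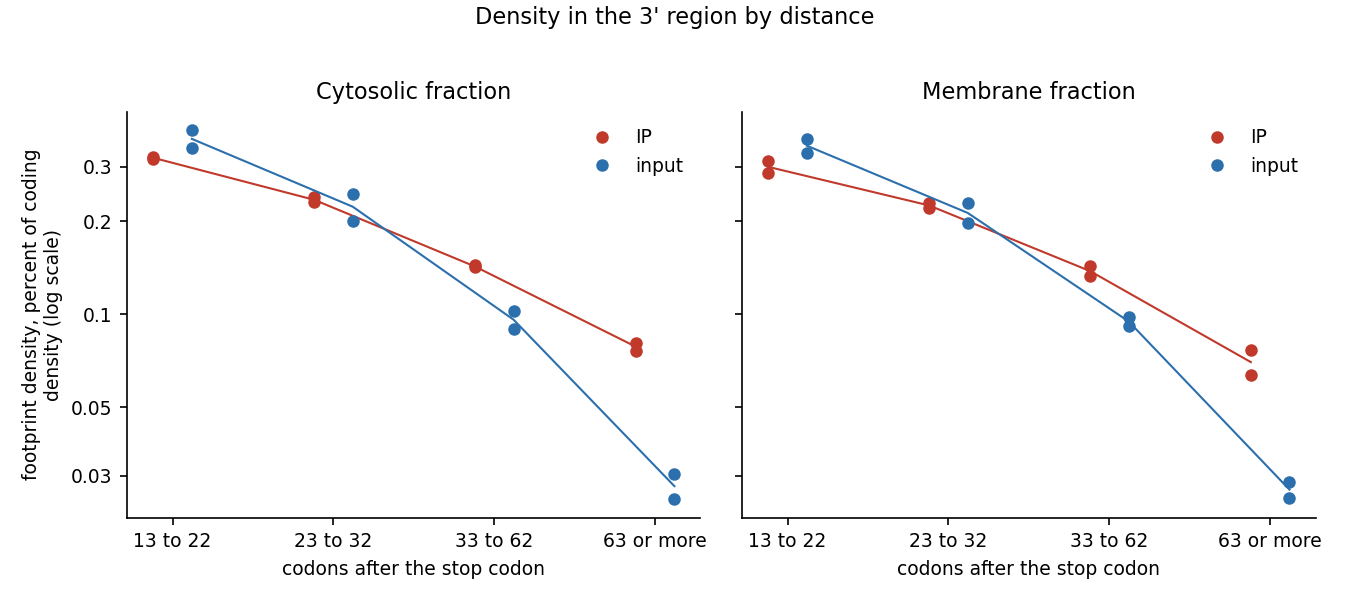
Footprint density as a percentage of the coding density of the same transcripts (log scale) in 4 ranges of distance from the stop codon, for windows without a same-strand gene, with 1 dot per library and lines through the group means (IP red, input blue). The IP dots lie below the input dots at 13 to 22 codons and above them at 33 to 62 codons and beyond, with the widest gap from codon 63 on.

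The difference in the far range was also measured without the highest transcripts and without overlaps. From codon 63 on the IP over input ratio was 2.95 in the cytosol and 2.54 at the membrane without the 10 transcripts with the most footprints there, and 2.70 and 2.55 in windows clear of leaders and RNA genes. In windows with no gene on either strand it was 2.44 and 2.23. Among windows that reach codon 63, the ratio was 1.08 in the cytosol and 1.07 at the membrane at 13 to 22 codons and 1.55 and 1.57 at 33 to 62 codons. Footprints from codon 63 on were seen in 306 and 244 transcripts in cytosolic IP against 175 and 132 in cytosolic input, and in 249 and 234 in membrane IP against 167 and 135 in membrane input. About 569 to 878 reads per IP library and 241 to 368 per input library lay there. The nearer difference rested on few transcripts, since without the 10 highest the ratio at 13 to 22 codons was 1.01 in the cytosol and 0.977 at the membrane.

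The transcripts with the most RPM from codon 63 on, named after their values were seen, did not all have more RPM there in IP. ADH1 held 4.40% of the RPM there, with 0.610 and 0.754 RPM in cytosolic IP against 1.10 and 0.809 in cytosolic input. Its coding RPM was 5163 and 5320 in cytosolic IP against 13652 and 13798 in cytosolic input. NGL3, whose window also holds an annotated leader or RNA gene, had 1.35 and 1.24 RPM there in cytosolic IP against 0.117 and 0.0608 in cytosolic input, and 0.939 and 1.25 in membrane IP against 0.0373 and 0.0903 in membrane input. Its coding RPM was also higher in IP, at 41.0 and 38.8 in cytosolic IP against 7.01 and 6.94 in cytosolic input, and the change of its whole-window ratio, 0.71, did not pass the test (limma adjusted p = 0.0716). RPS28B, whose transcript is known for a long 3' UTR that the Rps28 protein uses to control its own mRNA's decay, had 0.595 and 0.413 RPM there in cytosolic IP against 0.620 and 0.582 in cytosolic input. BIK1, a microtubule-associated protein whose window also holds an annotated leader or RNA gene, had 0.501 and 0.475 RPM there in cytosolic IP against 0.135 and 0.0714 in cytosolic input. Its coding RPM was also higher in IP, at 44.9 and 40.4 in cytosolic IP against 19.9 and 15.7 in cytosolic input. PTC3, a protein phosphatase, had 0.540 and 0.481 RPM there in cytosolic IP against 0.0675 and 0.116 in cytosolic input, beside 146 and 152 coding RPM in cytosolic IP and 111 and 116 in cytosolic input.

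Within single windows the footprints were often gathered in one place, though 1 read already covers 8 to 12 codons. Of the 65 windows without a same-strand gene and with at least 0.5 RPM, 40 had at least 50% of their RPM in a stretch of 11 codons, and 8 had at least 90% there. The stretch was centred within 2 codons of the same place in all 8 libraries for 21 windows. It was centred at codon 18, the first possible place, for 15 windows, and it was centred at codon 33 or later for 24. RPL14B had 90.8% to 98.8% of its RPM around codon 33 in every library, though its window extends to codon 125. MCM6, a subunit of the replicative helicase, had 93.1% to 100% around codon 39 of a window that extends to codon 82. SFK1 had 65.8% to 89.2% around codon 49 of a window that extends to codon 110. FBA1 had 84.5% to 95.4% around codon 20, but its window ends at codon 31 and is little longer than the stretch. HIR3 had 69.5% to 99.8% around codon 64, the last possible place in a window that ends at codon 69. The position was thus shared by IP and input for these transcripts, which were picked as examples and include none named above as a rise. RBH2, a rise, had 74.0% to 85.9% of its RPM around codon 26 in the IP libraries. In the inputs, where it had few reads, it had 0% to 27.2% there.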

How the data were processed

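The authors deposited, for each HEL2-FTP library, RPM per codon of 6663 transcripts with the distance of each codon from the start and stop codons; each read is shared out among the codons it covers. The submitters' processing notes name CASAVA 1.8, UMI-tools, Bowtie2, TopHat and sacCer3, and how they were set is not given in the sources used here. RPM sums to 1e+06 per library or just under. The most frequent RPM sum of isolated runs of 8 to 12 codons was taken as the worth of 1 read. Of such runs, 73.4% to 80.0% were whole multiples of it within 0.01. The depth estimates came from this worth. No count test was run on RPM. Intervals and floors cover counting error only.

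3' RPM was summed from codon 13 on and coding RPM from the start to the stop codon. Ratios were tested with limma 3.58.1 in R 4.3.3 (lmFit and eBayes with an intensity trend, 4 groups in 1 fit, pseudocount 0.1 RPM, Benjamini-Hochberg, call at an adjusted p below 0.05). In simulated cytosolic comparisons of 108 transcripts it recovered 15 of 20 changes of log2 1 and 20 of 20 of log2 2, and called 0 of 68 unchanged. Groups came from the sample titles. Gene positions and symbols came from the RefSeq table of assembly R64, which matched 5988 transcripts, with the strand read from the systematic name. The membrane-enriched list (604 genes) came from deposited whole-number counts of 8 input libraries of the SRP72p and GIT1p strains, with at least 2-fold more CPM in every membrane input than in every cytosolic input; the other files of those strains were not used here.

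Members and gene lists were chosen with earlier results of these data known. Transcripts are named by rule: the 10 highest in 3' RPM, the 10 highest in ratio, up to 5 rises and 5 falls per comparison, the extremes of each list, and any others as stated. Stop codon identity and sequence features were not analysed here, since no genome was used. Alternatives changed the window, pseudocount, filter, member set, centring and replicates.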

Additional observations from a re-analysis of the deposited data

How the results depend on the processing

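The 5 largest rises and 5 largest falls among the calls of each fraction kept their direction and their call in all 194 cytosolic and 193 membrane values from the alternatives. Alternatives in which a transcript was not fitted gave no value. These transcripts were picked as the largest calls with the same sign in both same-numbered pairs, so their stability was partly built in. The other changes named were not followed singly. The counts of called transcripts moved with the window and the filter. They are counts among the transcripts described here. The share called over all transcripts fitted was taken only for the main setting and the filter of 0.1 RPM. Counts under the other settings thus do not set these transcripts apart. With the window from codon 30 on, 19 transcripts were called in the cytosol and 21 at the membrane. With a filter of 2 RPM, 9 of 17 were called in the cytosol, 10 at the membrane and 1 between inputs. With no filter, 1603 of 2606 were called in the cytosol, 1522 at the membrane, 261 for the interaction and 547 between inputs, in windows whose ratio is mostly set by the pseudocount. With a filter of 0.1 RPM, chosen after seeing the data, 116 of 427 were called in the cytosol, 108 at the membrane, 2 for the interaction and 27 between inputs, and the median change of the 427 was 0.09 in the cytosol and 0.06 at the membrane. The same filter on windows clear of genes, leaders and RNA genes gave 78, 80, 3 and 19 of 327. Between inputs, a window of 13 to 100 codons left 1 call and a pseudocount of 0.5 RPM gave 5. Leaving out each library in turn gave 26 to 36 calls in the cytosol, 27 to 36 at the membrane, 0 to 0 for the interaction and 1 to 4 between inputs. It gave pooled log2 differences of -0.64 to -0.56 in the cytosol, -0.58 to -0.57 at the membrane and -0.17 to -0.09 between inputs. The median over transcripts with any footprint reversed the pooled log2 differences, to 1.09 in the cytosol, 0.38 at the membrane and 0.048 between inputs; the cause was not tested. As density per codon, chosen after seeing the data, the pooled difference was reversed in the cytosol, to 0.058, and in windows without a same-strand gene to 0.19 in the cytosol and 0.18 at the membrane. Same-numbered replicates deviated together with r of 0.213 in the cytosol, 0.426 at the membrane and 0.0619 between inputs, and the samples share only a number. With the replicate block, limma called 42 transcripts in the cytosol, 39 at the membrane, 1 for the interaction and 6 between inputs, and the pooled differences were -0.60, -0.58 and -0.13. With 2 libraries per group, no single value per library can pass an exact test.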
